A study of Mus musculus with 9 samples.

Results

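Receptor tyrosine kinases are single-pass membrane proteins that bind a growth factor, an ephrin or a matrix protein outside the cell and phosphorylate tyrosines inside it. The phosphorylated tyrosines recruit adaptor proteins that feed the Ras, phosphoinositide 3-kinase and phospholipase C pathways, and feedback proteins switch the signal off. In fibroblasts the platelet-derived growth factor (PDGF) receptors are the best known members, whereas Kit is known in germ cells, blood progenitors and embryonic stem (ES) cells, and Tek in vessel endothelium. A list of 45 mouse receptor tyrosine kinase genes was matched to the array by gene symbol or RefSeq accession. Probes were found for 42 genes (43 probes, with 2 for Erbb3), of 14555 genes named on the array, and none was found by this rule for Erbb4, Ntrk3 and Ephb4.

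Cy3-labelled RNA of 9 mouse cell samples was put on 1 array each. There were 4 induced pluripotent (iPS) clones: a 4-factor clone, a 10-factor clone and 3-factor clones 1 and 2, named by the number of retroviral factors put into mouse embryonic fibroblasts (MEF) with a βgeo knock-in at Fbx15. They were grown in ES cell medium and kept under the drug G418 for 16 days, so that only cells with an active Fbx15 locus survived, and each is 1 clone. The labels do not say which factors were used. One array held Fbx15-null ES cells, which were grown on STO feeder cells. The 4 fibroblast-derived samples were knock-in MEF that received 4 factors but no drug and gave no clones (unselected MEF), a wild-type MEF line that became immortal and carries a retroviral vector, NIH3T3 fibroblasts transformed by the active Ras mutant HRasV12, and fibroblasts of Fbx15-null E13.5 embryos (MEF). The clones, the ES cells, the unselected MEF and MEF thus carried an altered Fbx15, and the other lines did not. No label states that the clones, or the fibroblast-derived samples, were cultured separately, and p-values reflect the scatter of these arrays only. Fewer cells of a type cannot be told apart from less RNA per cell.

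The arrays were alike in brightness: between 52.4% and 59.6% of probes were well above background, and the 75th percentile of the signal lay between 167 and 300. Levels are given here as log2 of a probe's signal relative to its array's 75th percentile, with a floor at -4.78, and compare samples for 1 probe, not 1 gene with another. Summed signals of 10 fibroblast markers were 61.2 to 136 times the 75th percentile in the clones, 66.8 in ES cells and 394 to 749 in the fibroblast-derived samples. For 7 pluripotency markers the sums were 1.83 to 52.3 in the clones, 445 in ES cells and 0.0653 to 0.684 in the fibroblast-derived samples. The clones thus had fewer fibroblast transcripts than the fibroblasts and a smaller pluripotency sum than the ES cells. Both 3-factor clones lay at the bottom of that pluripotency range (1.83 and 2.13), with only 2 and 3 of 7 markers above background. The unselected MEF, at 0.684, likewise showed 3 of 7, whereas ES cells showed 6. Larger sums came from the 4-factor clone (10.9, 4 of 7) and its 10-factor counterpart (52.3, 6 of 7). The 3-factor clones differed from each other less than the other clone pairs did, with a robust SD of 0.187 against 0.312 to 0.411 (log2 differences, 3496 bright probes), and both were kept. Scan days in the file headers form 4 scans: 1 with ES, MEF and the 4- and 10-factor clones, 2 with the 3-factor clones, 3 with the immortalised line and the NIH3T3 cells, and 4 with the unselected MEF.

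The promoters of 4 of the 5 receptor genes that passed the test between clones and fibroblast-derived samples are shown as the 250 bases before the gene's start, 5′ to 3′, from RefSeq on GRCm38.p6. Capitals mark matches on either strand to GGGCGG (the GC box) and TATAAA. The promoters of Tek and Kit, higher in the clones, stand before those of Axl and Flt1, lower in the clones.

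Tek, chr4:94739039-94739288, plus strand: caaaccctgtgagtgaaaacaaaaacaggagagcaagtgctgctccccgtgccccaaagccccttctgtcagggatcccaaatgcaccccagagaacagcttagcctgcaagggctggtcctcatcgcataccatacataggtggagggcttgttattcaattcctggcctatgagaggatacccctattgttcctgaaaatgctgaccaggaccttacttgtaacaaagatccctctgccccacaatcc

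Kit, chr5:75574737-75574986, plus strand: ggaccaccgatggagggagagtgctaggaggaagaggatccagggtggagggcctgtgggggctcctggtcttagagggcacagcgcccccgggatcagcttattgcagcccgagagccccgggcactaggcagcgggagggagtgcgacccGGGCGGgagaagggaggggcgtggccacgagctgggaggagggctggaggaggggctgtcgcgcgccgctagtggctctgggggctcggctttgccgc

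Axl, chr7:25788734-25788983, minus strand: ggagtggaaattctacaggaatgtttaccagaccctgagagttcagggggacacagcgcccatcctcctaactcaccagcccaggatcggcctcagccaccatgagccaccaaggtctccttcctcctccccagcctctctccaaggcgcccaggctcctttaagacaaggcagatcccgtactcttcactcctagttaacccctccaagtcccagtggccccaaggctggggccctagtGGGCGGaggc

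Flt1, chr5:147726012-147726261, minus strand: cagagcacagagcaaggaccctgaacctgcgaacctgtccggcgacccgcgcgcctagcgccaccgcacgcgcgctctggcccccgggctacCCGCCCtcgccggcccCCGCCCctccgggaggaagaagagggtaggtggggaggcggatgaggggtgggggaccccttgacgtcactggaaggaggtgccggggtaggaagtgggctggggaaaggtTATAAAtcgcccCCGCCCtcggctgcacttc

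The Tek window held no match to either motif, and its GC content was 51.2%, against 70.8% for Kit, 60% for Axl and 70.4% for Flt1. Kit had 1 GC box whose first base lay 98 bases before the start, and Axl had 1 at 10 bases. Flt1 had 3, at 158, 142 and 19 bases, and TATAAA at 31 bases before its start. GGGCGG occurred in 31 of the 44 promoters of the 37 receptor genes in the RefSeq table and in 32.7% of all 32851 promoters, and TATAAA in 3 of 44 and in 12.4% of all. TGANTCA, the AP-1 motif, occurred in 3 of 44 and in 6.75% of all, and CCGGAAG, an Ets motif, in 2 of 44 and in 6.91% of all, none of them in the 4 windows printed. No overlap between motifs was removed.

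Of the 42 receptor genes, 12 were well above background on all 9 arrays, 18 on 1 to 8 arrays and 12 on none. Of the receptor genes 28.6% were thus above background on every array and 28.6% on none, against 48.7% and 22.3% of all named genes. The genes seen on every array were Pdgfra and Pdgfrb (PDGF receptors), Fgfr1 (a fibroblast growth factor receptor), Mertk (a receptor of Gas6 and protein S), Igf1r (the insulin-like growth factor receptor), Ddr1 and Ddr2 (collagen receptors), Epha2, Epha7 and Ephb3 (ephrin receptors), and Ptk7 and Ryk (receptors of the Wnt pathways that lack kinase activity). No array showed Erbb3, Flt3, Flt4, Kdr, Fgfr3, Tie1, Insr, Ntrk2, Ret, Ror1, Epha5 or Ephb2 above background, which bounds these probes and does not show that the RNA was absent. By array, the number of receptor genes above background was 18 in the 4-factor clone, 25 in the clone with 10 factors, 21 in each 3-factor clone, 22 in ES cells, 20 in the unselected MEF, 18 in the immortalised line, 18 in the NIH3T3 cells and 23 in MEF. The share of all named genes above background was 62.5%, 66.0%, 62.9% and 62.4% in those clones, 64.1% in ES cells, 61.4% in the unselected MEF, 58.1% in the immortalised line, 58.2% in the NIH3T3 cells and 62.4% in MEF. Tek and Kit were above background in all 4 clones and in none of the 4 fibroblast-derived samples, and no receptor gene showed the opposite pattern.

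**Figure D1:**
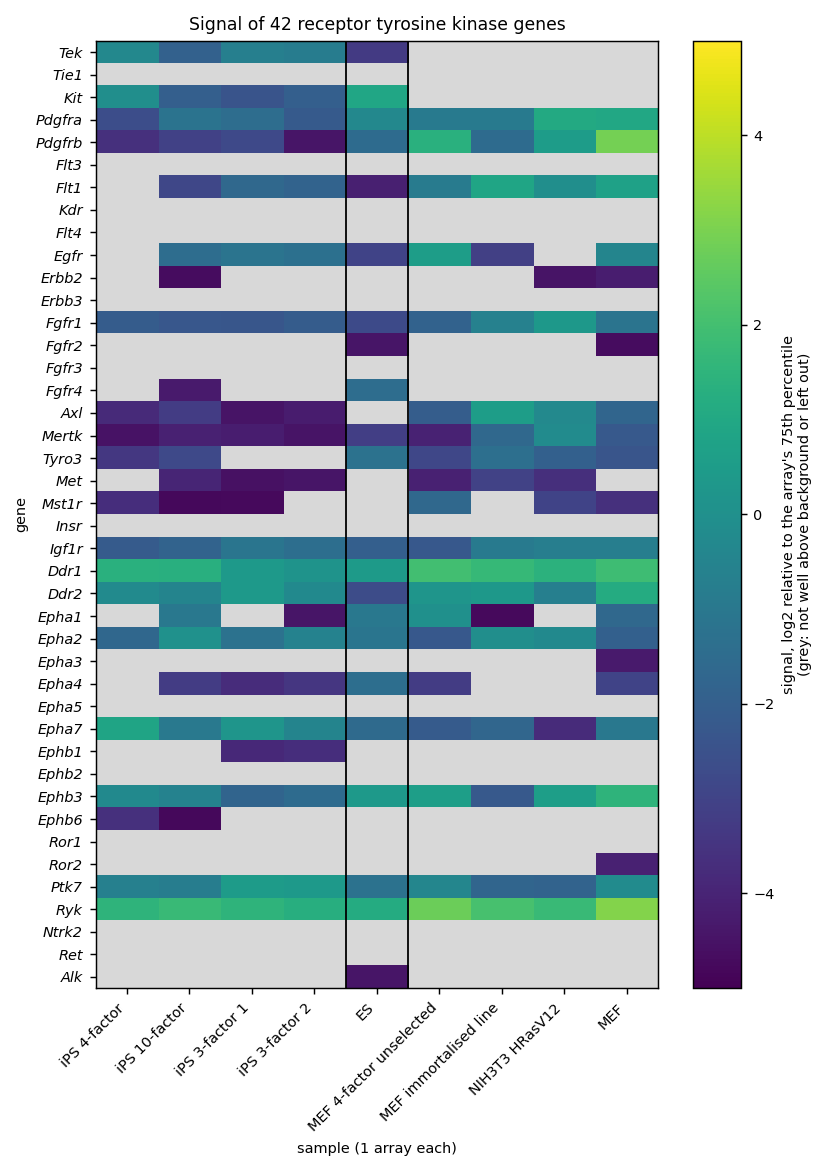
Signal of the 42 receptor genes (rows, by family) on the 9 arrays (columns: 4 iPS clones, ES, 4 fibroblast-derived samples), as log2 relative to the array's 75th percentile. Grey cells were not well above background or were left out, and colours compare arrays within a row. Tek and Kit are coloured in all 4 clones and grey in all 4 fibroblast-derived samples, and 12 rows are grey throughout.

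Clones and fibroblast-derived samples were compared to ask which receptors differ between them. The immortalised line and the NIH3T3 cells are not starting cells of the clones. Reprogramming thus cannot be told apart here from cell line, from the immortalised line's vector or, in the NIH3T3 cells, from HRasV12. Of 25 receptor genes that passed the filter (well above background in 50% or more of the clones or of the fibroblast-derived samples), Tek and Kit were higher in the clones, Axl, Pdgfrb and Flt1 were lower, and 20 did not pass the test (limma, Benjamini-Hochberg adjusted p under 0.05 over all 12949 probes tested). Over all probes, 4.2% were called higher and 4.73% lower, and the median difference was -0.55 over the 25 receptor genes, against 0.02 over all probes. The levels of the clones and the fibroblast-derived samples did not overlap for 3 receptor genes that were higher (Tek, Kit and Epha7) and 8 that were lower (Axl, Pdgfrb, Flt1, Pdgfra, Mertk, Fgfr1, Ddr1 and Ryk), where 8.71% of all probes did not overlap with higher clones and 9.72% with lower clones.

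Tek, the angiopoietin receptor of endothelial cells, was at -0.33 in the 4-factor clone, -1.91 in the clone with 10 factors, -0.67 and -0.80 in 3-factor clones 1 and 2, -3.30 in ES cells and -4.48 in the unselected MEF, with the other fibroblast-derived samples at the floor. All 4 clones were above the ES cells and the fibroblast-derived samples. The clones averaged -0.93 ± 0.68 and the fibroblast-derived samples -4.71 ± 0.15 (SD, n = 4 each), a log2 difference of 3.78 ± 0.34 (SE, limma adjusted p = 0.00153) and at least 17.3-fold, since no fibroblast-derived sample was well above background. Tek passed the filter through the clones alone, and the floor values of the fibroblast-derived samples narrow its error. Its relative Tie1 was above background on no array.

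Some endothelial markers were also brighter in clones and others were not seen there. Esam was at -4.54 in the 4-factor clone and at -2.08, -0.89 and -0.66 in the other three, against -3.97 or less in the fibroblast-derived samples. Robo4 and Sox18 were each above background in 3 clones and Cldn5 in both 3-factor clones (-1.06 and -2.15), none of them in a fibroblast-derived sample and all 3 of them in ES cells. Cdh5 was above background on no array, Pecam1 in ES cells alone and Emcn in MEF alone. The summed signal of the 8 endothelial markers with a probe was 2.64 to 3.22 in the clones (3 to 5 of 8 above background), 11.9 in ES cells (6 of 8) and 0.0416 to 4.10 in the fibroblast-derived samples (1 to 3 of 8). Egfl7 made up most of each of these sums, and the markers' part in the Tek result was not tested. Tek stayed past the threshold when any 1 sample was left out and when the 3-factor clones were averaged (adjusted p = 0.00981). Normexp, another background correction, gave 1.46 (adjusted p = 0.0116). With scan as a block, which leaves the 4- and 10-factor clones against MEF, its difference was 3.66 with an adjusted p of 0.0662, and within scan 1 alone 3.66 with 0.268.

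Kit, the stem cell factor receptor, was at -0.07 in the 4-factor clone, -1.97 in the clone with 10 factors, -2.39 and -1.97 in 3-factor clones 1 and 2, and 0.90 in ES cells, and lay at the floor in all 4 fibroblast-derived samples. The ES cells were thus highest and the 4-factor clone came next. The clones averaged -1.60 ± 1.04 (SD, n = 4), and the difference from the fibroblast-derived samples was 3.18 ± 0.47 (SE, limma adjusted p = 0.00808), at least 11.5-fold. Kit passed the filter through the clones alone. Every fibroblast-derived value is the floor itself and adds no spread of its own, so this error and its p-value are likely too small. Normexp background correction gave 1.05 with an adjusted p of 0.0969, the block on scan 3.77 with 0.0914 and scan 1 alone 3.77 with 0.298, whereas no single sample left out ended the call. Mast cells, which carry Kit, had their 4 markers summing to 0 to 0.0463 in the clones (Cpa3 in the 4-factor clone alone) and to 0 in ES cells and in the fibroblast-derived samples.

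Pdgfrb, a PDGF receptor of fibroblasts and pericytes, was at -3.62 in the 4-factor clone, -3.05 in the clone with 10 factors, -2.79 and -4.43 in 3-factor clones 1 and 2 and -1.50 in ES cells. It reached 1.34 in the unselected MEF, -1.50 in the immortalised line, 0.52 in the NIH3T3 cells and 2.92 in MEF. Each clone was below each other sample. The clones averaged -3.47 ± 0.73 and the fibroblast-derived samples 0.82 ± 1.84 (SD, n = 4 each), a difference of -4.29 ± 0.87 (SE, limma adjusted p = 0.0234). The summed fibroblast markers were also lower in all clones (61.2 to 136) than in the fibroblast-derived samples (394 to 749), and their part in this result was not tested.

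Pdgfra, the receptor that binds PDGF-A, ran from -2.64 to -1.19 in the clones, was -0.32 in ES cells and ran from -0.92 to 1.06 in the fibroblast-derived samples. Its difference of -1.92 did not pass (adjusted p = 0.0822), although the 2 sets of values did not overlap.

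Axl, a receptor of the vitamin K-dependent protein Gas6, was at -3.82 in the 4-factor clone, -3.21 in the clone with 10 factors, and -4.47 and -4.25 in 3-factor clones 1 and 2, and was not above background in ES cells. Its levels were -2.05 in the unselected MEF, 0.56 in the immortalised line, -0.28 in the NIH3T3 cells and -1.74 in MEF. All clones were thus below all fibroblast-derived samples, at means of -3.94 ± 0.56 and -0.88 ± 1.23 (SD, n = 4 each). The difference was -3.06 ± 0.60 (SE, limma adjusted p = 0.0213). Within its family, Mertk differed by -2.30 (adjusted p = 0.0885) and Tyro3 by -1.81 (adjusted p = 0.0777), and neither passed.

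Flt1, a receptor of vascular endothelial growth factor (VEGF), was not above background in the 4-factor clone and stood at -2.88 in the 10-factor clone, -1.63 and -1.83 in 3-factor clones 1 and 2 and -4.10 in ES cells. It was at -0.83 in the unselected MEF, 0.90 in the immortalised line, -0.08 in the NIH3T3 cells and 0.71 in MEF, all above the clones. The difference was -2.95 ± 0.73 (SE, limma adjusted p = 0.0438), between means of -2.78 ± 1.44 in the clones and 0.17 ± 0.79 in the fibroblast-derived samples (SD, n = 4 each). The other VEGF receptors, Kdr and Flt4, were above background on no array.

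The lower calls rested on fewer settings than those of Tek and Kit. With the 3-factor clones averaged, the adjusted p was 0.0742 for Axl, 0.064 for Pdgfrb and 0.0712 for Flt1. With scan as a block, the differences were -1.77 for Axl (adjusted p = 0.122), -6.26 for Pdgfrb (0.0626 adjusted p) and -4.54 for Flt1 (0.0776 adjusted p), and within scan 1 alone the same differences had adjusted p of 0.239, 0.203 and 0.263. Normexp background correction gave Axl -1.37 (adjusted p = 0.0505), Pdgfrb -2.49 (adjusted p = 0.0547) and Flt1 -1.60 (adjusted p = 0.0246). Leaving out 1 sample ended the call of Axl without 3-factor clone 1 (adjusted p = 0.0677), 3-factor clone 2 (0.0704) or the NIH3T3 cells (0.0518). The call of Pdgfrb was lost without the 4-factor clone (adjusted p = 0.0565), 3-factor clone 1 (0.0533) or 3-factor clone 2 (0.0745). That of Flt1 was lost without the 10-factor clone (adjusted p = 0.0949), either 3-factor clone (0.0598 and 0.0739), MEF (0.0973), the immortalised line (0.0738) or the NIH3T3 cells (0.0815). Scaling to the median of probes above background took Flt1 to -2.70 (adjusted p = 0.0579), and a lower floor to -3.20 (adjusted p = 0.0638). With no filter on dim probes the adjusted p was 0.0686 for Axl, 0.0772 for Pdgfrb and 0.126 for Flt1.

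**Figure D2:**
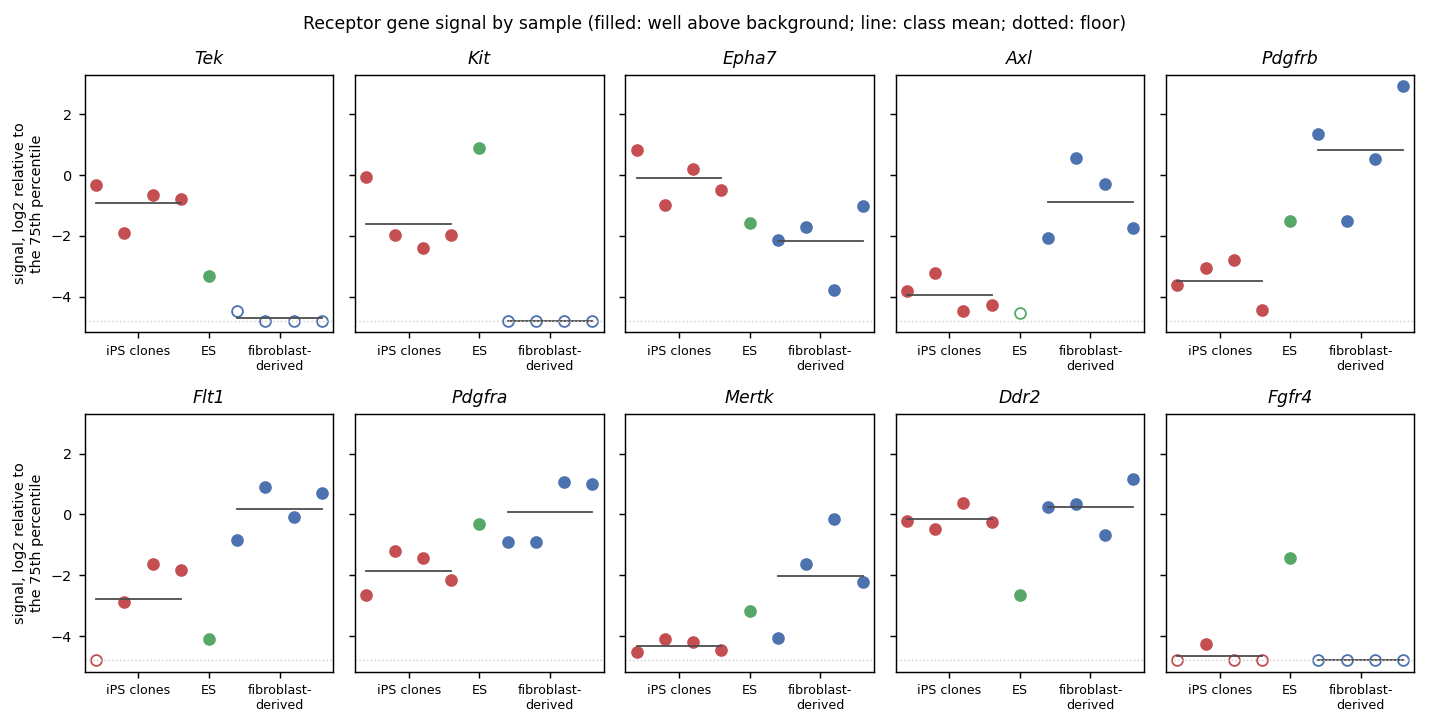
Signal of 10 receptor genes by sample (log2 relative to the array's 75th percentile): the 4 iPS clones in red (4-factor, 10-factor, 3-factor 1 and 2), ES in green and the fibroblast-derived samples in blue (unselected MEF, immortalised line, NIH3T3 HRasV12, MEF). Filled points were well above background, open points were not, lines are class means and the dotted line is the floor at -4.78. Tek and Kit lie above every fibroblast-derived sample in all 4 clones, and Axl, Pdgfrb and Flt1 below.

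Among the Eph receptors, which bind ephrins on neighbouring cells, Epha7 was at 0.83 in the 4-factor clone, -0.98 in the clone with 10 factors, 0.22 and -0.49 in 3-factor clones 1 and 2 and -1.56 in ES cells. It was at -2.12 in the unselected MEF, -1.72 in the immortalised line, -3.77 in the NIH3T3 cells and -1.004 in MEF. The lowest clone was thus just above MEF, and the difference of 2.05 ± 0.63 (SE) from the fibroblast-derived samples did not pass (limma adjusted p = 0.0853).

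Epha1 was above background in the 10-factor clone (-1.01) and 3-factor clone 2 (-4.42) and in neither other clone. It was -0.996 in ES cells, 0.00 in the unselected MEF, -4.73 in the immortalised line and -1.61 in MEF, and not above background in the NIH3T3 cells. Both classes thus held samples near the floor and samples far above it, and no difference passed (adjusted p = 0.661). Epha2, Ephb3 and Epha4 did not pass either, with differences of 0.28, -1.15 and 0.16. Ephb1 was seen in the 3-factor clones alone, at -3.84 and -3.70, and Ephb6 in the 4- and 10-factor clones alone, at -3.62 and the floor.

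Egfr, the epidermal growth factor receptor, whose probe is annotated to transcript variant 2, was at -1.43 in the 10-factor clone and -1.14 and -1.32 in 3-factor clones 1 and 2, while its spot on the 4-factor clone's array was left out as an outlier. It was -3.00 in ES cells, 0.58 in the unselected MEF, -3.11 in the immortalised line and -0.46 in MEF, and not above background in the NIH3T3 cells. The means were -1.30 ± 0.14 in 3 clones and -1.94 ± 2.45 in 4 fibroblast-derived samples (SD), which spread on both sides of the clones, and the difference did not pass (adjusted p = 0.767). Its relative Erbb2 was within 0.58 of the floor on all arrays.

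The remaining genes were those of broad signal. Ddr1 ran from 0.15 to 1.35 in the clones and from 1.43 to 1.99 in the fibroblast-derived samples, and Ryk from 1.25 to 1.79 in the clones and from 1.79 to 3.15 in the fibroblast-derived samples. Their differences of -0.95 (adjusted p = 0.111) and -0.94 (adjusted p = 0.114) did not pass. Fgfr1 (-1.37, adjusted p = 0.0918), Ptk7 (0.91, adjusted p = 0.281), Igf1r (-0.46, adjusted p = 0.491), Ddr2 (-0.41, adjusted p = 0.529) and the Met family members Met (-0.55) and Mst1r (-1.25) did not pass either.

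The label of the MEF array names these cells as a starting material for reprogramming, although the clones' own labels give knock-in MEF. The comparison of the clones with MEF has 1 array on the MEF side, which has no spread of its own and is assumed to vary like the clones. It shares the clones with the comparison above, and MEF is 1 of the fibroblast-derived samples. Of 28 receptor genes tested, 1 was higher in the clones (Tek) and 7 were lower (Pdgfrb, Mertk, Ryk, Fgfr1, Erbb2, Ror2 and Epha3, the last pair only by a floor with no spread), where 4.73% of all 13051 probes were higher and 9.32% lower. All clones were above the MEF level for 4 of the 28 genes and below it for 19, as they were for 31.8% and 33.6% of all probes. The median difference over the 28 genes was -0.86, against 0.04 over all probes.

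Pdgfrb differed by -6.39 ± 0.72 (SE, limma adjusted p = 0.0195), from the levels given above. Mertk was at -4.52, -4.08, -4.19 and -4.46 in the 4-factor, 10-factor and 3-factor clones, against -2.21 in MEF, a difference of -2.10 ± 0.22 (SE, adjusted p = 0.0168). Its level in the unselected MEF, -4.05, lay beside the clones, and -3.16 in ES cells, -1.64 in the immortalised line and -0.16 in the NIH3T3 cells were higher.

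Fgfr1 was at -2.08, -2.29, -2.31 and -2.11 in the clones, against -1.16 in MEF, with -2.74 in ES cells, -1.87 in the unselected MEF, -0.60 in the immortalised line and 0.34 in the NIH3T3 cells. Its difference from MEF was -1.03 ± 0.14 (SE, adjusted p = 0.0275). Ryk, an atypical Wnt receptor, was at 1.52, 1.79, 1.49 and 1.25 in the clones, against 3.15 in MEF, and at 1.14 in ES cells, 2.77 in the unselected MEF, 2.09 in the immortalised line and 1.79 in the NIH3T3 cells. Its difference from MEF was -1.64 ± 0.23 (SE, adjusted p = 0.0286).

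Tek differed by 3.86 ± 0.68 (SE, adjusted p = 0.0435), at least 16.6-fold. Tek passed the filter through the clones alone, and its MEF value is the floor itself. Kit differed by 3.18 (at least 10.4-fold) and did not pass (adjusted p = 0.129), nor did Pdgfra (-2.86, adjusted p = 0.0718), Axl (-2.20, adjusted p = 0.0841), Ephb3 (-2.52, adjusted p = 0.103) or Flt1 (-3.49, adjusted p = 0.193). Ror2, a Wnt5a receptor, and Epha3 stood at -4.06 and -4.28 in MEF and were not above background on any other array, so they passed the filter through MEF alone, and with all clones at the floor their p-values carry no information and are not given. As bounds they were at least 2.29- and 1.97-fold lower in the clones. Erbb2, at -4.20 in MEF and -4.48 in the NIH3T3 cells, was above background in 1 clone, the 10-factor clone at -4.66. It too passed the filter through MEF alone, and the floor values of the other clones narrow its error.

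Each of these calls was lost when a single clone was left out. Without 3-factor clone 1 no receptor gene was called, and without 3-factor clone 2 or with the 3-factor clones averaged Pdgfrb alone was (-6.35, adjusted p = 0.032, when averaged). Without the 4-factor clone 5 were called, with Pdgfrb (adjusted p = 0.0563), Ryk (0.068), Tek (0.077) and Erbb2 (0.0723) among those lost, and without the 10-factor clone Fgfr1 was lost (0.0511). With scan as a block, Pdgfrb (adjusted p = 0.0524), Tek (0.0891), Fgfr1 (0.0609) and Erbb2 (0.0648) were lost. Scaling to the median of probes above background ended the calls of Ryk (adjusted p = 0.0552) and Erbb2 (0.153), and quantile normalization those of Fgfr1 (0.0614) and Tek (0.0566). Testing all probes ended those of Ryk (adjusted p = 0.0588) and Tek (0.0986), and a lower floor that of Erbb2 (0.202). Normexp background correction called 5, among them Pdgfrb and Ryk of the 8 and Pdgfra, Ephb3 and Flt1, and took Mertk to -0.70 and Tek to 1.27.

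Setting the clones against the single ES array asks where the clones differ from cells that are pluripotent by origin. Of 27 receptor genes tested, Egfr and Ddr2 were higher in the clones and Fgfr4 was lower, where 4.06% of all 13210 probes were higher and 9.43% lower. All clones were above the ES level for 8 of the 27 genes and below it for 11, as they were for 26.2% and 36.3% of all probes. The median difference was 0.29 over the 27 genes and -0.07 over all probes.

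Ddr2, a receptor of fibrillar collagen found in mesenchymal cells, was at -0.23 in the 4-factor clone, -0.49 in the clone with 10 factors, and 0.37 and -0.26 in 3-factor clones 1 and 2, against -2.66 in ES cells. The fibroblast-derived samples overlapped the clones, at 0.23 in the unselected MEF, 0.35 in the immortalised line, -0.69 in the NIH3T3 cells and 1.15 in MEF. The clones differed from ES cells by 2.51 ± 0.37 (SE, limma adjusted p = 0.0317). The fibroblast marker sum of ES cells, which were grown on STO feeder cells, was 66.8. Only the 4-factor clone lay below it (61.2), and every other clone lay above it (82.9 to 136). What these markers contribute to the Ddr2 result was not tested.

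Egfr differed by 1.70 ± 0.16 (SE, 3 clones and 1 ES array, adjusted p = 0.0287), from the levels given above. Fgfr4, a fibroblast growth factor receptor, was at -1.43 in ES cells, reached -4.27 in the 10-factor clone and was above background on no other array, so that 3 of the 4 clones stood at the floor. Its difference was -3.23. Fgfr4 passed the filter through the ES array alone, and the floor values of the clones narrow its error. Kit was lower in all 4 clones than in ES cells and did not pass (-2.50 ± 1.04, SE, adjusted p = 0.213), nor did Tek, higher in all 4 (2.38 ± 0.68, SE, adjusted p = 0.114).

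Normexp background correction or averaging the 3-factor clones left none of these 3 calls, and with scan as a block Fgfr4 alone was called (-3.10, adjusted p = 0.0315). Normexp took Fgfr4 to -1.32, Ddr2 to 1.36 and Egfr to 0.52. Leaving out 3-factor clone 2 ended the calls of Fgfr4 (adjusted p = 0.0567), Ddr2 (0.108) and Egfr (0.134). Leaving out 3-factor clone 1 ended those of Fgfr4 (adjusted p = 0.0564) and Egfr (0.0994), the 4-factor clone that of Ddr2 (0.0781) and the 10-factor clone that of Egfr (0.0607). A lower floor ended that of Fgfr4 (adjusted p = 0.0524), and testing all probes those of Ddr2 (0.065) and Egfr (0.0583). Alk and Fgfr2 were seen near the floor in ES cells (-4.45 and -4.44), and Fgfr2 also in MEF (-4.66).

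**Figure D3:**
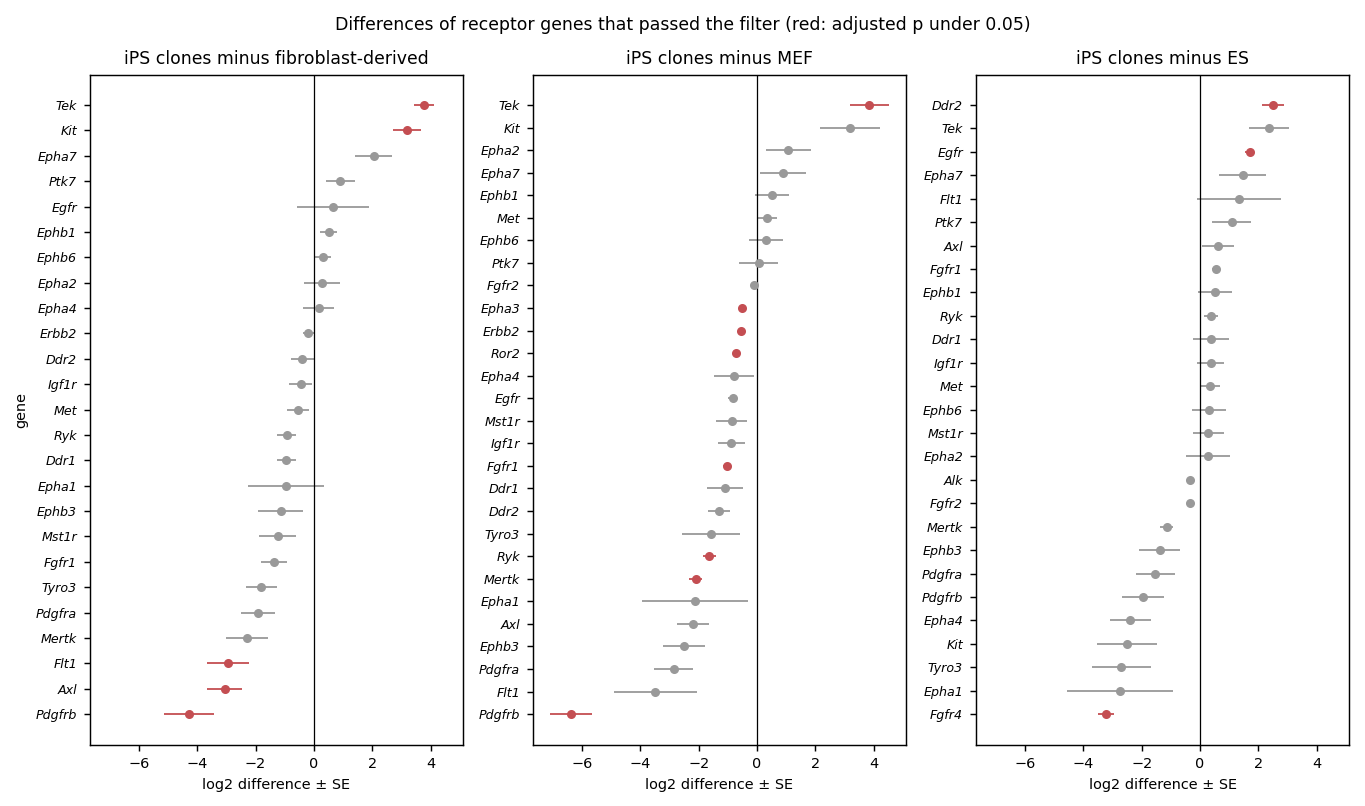
Log2 differences ± SE (limma) of the receptor genes that passed the filter, for the clones minus the fibroblast-derived samples (25 genes), MEF (28 genes) and ES (27 genes). Red points had an adjusted p under 0.05. Tek is highest in the first 2 panels and Pdgfrb lowest, while in the ES panel Ddr2 is highest and Fgfr4 lowest.

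Single arrays were also set side by side, with no test, calling a gene where the arrays were at least 5-fold apart and the brighter was well above background. Between ES cells and MEF, Kit was at least 59.0-fold and Fgfr4 at least 10.96-fold higher in ES cells, and Flt1 was 28.0-fold, Pdgfrb 21.5-fold, Ddr2 14.0-fold, Axl at least 6.97-fold and Egfr 5.81-fold lower. Of all probes, 6.38% were that much higher and 5.63% that much lower.

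The 4-factor clone and the unselected MEF received the same number of factors. They differ in drug selection and scan, and the first is a single clone while the second gave no clones. These cannot be told apart here. Kit was at least 27.1-fold, Tek at least 17.7-fold and Epha7 7.75-fold higher in the 4-factor clone, and Epha1 was at least 36.9-fold, Pdgfrb 31.1-fold and Flt1 at least 20.7-fold lower, where 4.83% of all probes were that much higher and 7.05% that much lower. Against MEF, no receptor gene reached 5-fold in the unselected MEF, where 3.47% of all probes were higher and 1.41% lower.

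In the NIH3T3 HRasV12 cells, set against MEF, Egfr was at least 27.4-fold, Epha1 at least 12.3-fold, Epha7 6.79-fold and Pdgfrb 5.28-fold lower and none was higher (1.62% of all probes higher, 5.8% lower). These cells are also a different cell line from MEF, which came from embryos, and differ from MEF in Fbx15 and in scan. None of these differences can be told apart from HRasV12 here.

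Between the clones, Epha1 alone was 5-fold apart in the 10-factor against the 4-factor clone, at least 18.3-fold higher in the 10-factor clone (1.84% of all probes higher, 1.3% lower). The 3-factor clones differed at 5-fold for no receptor gene, where 0.107% of all probes were higher and 0.0247% lower in clone 2. Over the 20 receptor genes above background in both, their median absolute log2 difference was 0.26, and the widest was 1.64 for Pdgfrb.

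The ligands of these receptors were counted from a list of 48, of which 44 had a probe. Against the fibroblast-derived samples, 2 of 34 tested were higher in the clones and 5 lower (4.2% and 4.73% of all probes), with a median difference of -1.002 against 0.02 over all probes. Mst1, the ligand of Mst1r, was at 1.88 in the 4-factor clone, 1.62 in the clone with 10 factors, and 2.33 and 1.94 in 3-factor clones 1 and 2, against -0.61 in the unselected MEF and -3.77 in MEF, and was not above background in either other line. That was a difference of 5.43 ± 0.88 (SE, limma adjusted p = 0.0104). With -2.16 in ES cells, Mst1 also differed from ES cells, by 4.10 (adjusted p = 0.00653). Its receptor Mst1r was at most -3.69 in the clones and did not pass.

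Angpt2, a ligand of Tek, was lower in the clones (-2.85, adjusted p = 0.039), as were Fgf7 (-2.63, adjusted p = 0.00621), a ligand of Fgfr2, and Hbegf (-2.20, adjusted p = 0.00547), a ligand of Egfr. Angpt2 in the unselected MEF, at -3.54, lay beside 3-factor clone 1 at -3.63, whereas the other fibroblast-derived samples ran from -1.07 to -0.38. Pdgfa and Vegfb, bright on all arrays, did not pass (-0.59, adjusted p = 0.431, and -1.29, adjusted p = 0.0539). The ligands of Kit and Axl were also looked at for their receptors' sake. Kitl was at -1.94, -1.55, -2.28 and -2.12 in the clones, -1.84 in ES cells, -1.14 in the unselected MEF, 2.26 in the NIH3T3 cells and -1.32 in MEF, and Gas6 at 1.93, 3.21, 3.73 and 3.54 in the clones, 1.502 in ES cells, 4.93 in the unselected MEF, -0.37 in the NIH3T3 cells and 3.72 in MEF. Neither was above background in the immortalised line, and neither passed (adjusted p = 0.741 and 0.49). Against MEF, 1 of 36 ligands was higher in the clones and 10 lower (4.73% and 9.32% of all probes), and against ES cells 1 of 31 was higher and 3 lower (4.06% and 9.43% of all probes).

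**Figure D4:**
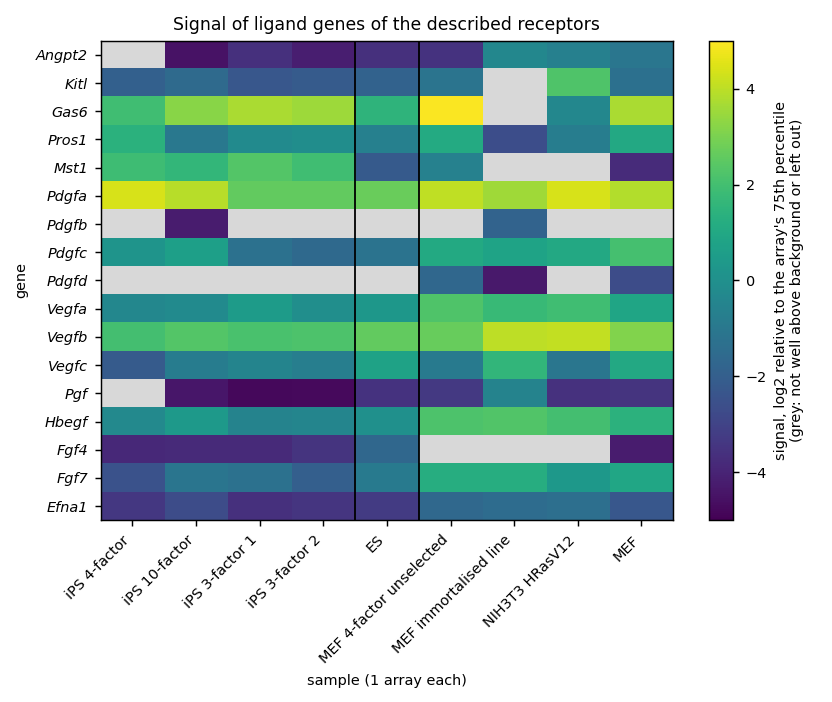
Signal of 17 ligand genes of the described receptors (rows) on the 9 arrays (columns: 4 iPS clones, ES, 4 fibroblast-derived samples), as log2 relative to the array's 75th percentile. Grey cells were not well above background, and colours compare arrays within a row. Mst1 is brighter in the 4 clones than on every other array, and Angpt2, Fgf7 and Hbegf are dimmer in the clones than in the brightest fibroblast-derived samples.

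Of 28 tested adaptors and first signalling steps (40 listed, 34 with a probe), 1 was higher in the clones than in the fibroblast-derived samples and 3 lower (4.2% and 4.73% of all probes), with a median of -0.16. Grb7, an adaptor that binds ErbB and Tek receptors, was at -2.14 in the 4-factor clone, 2.30 in the clone with 10 factors, 0.15 and 0.21 in 3-factor clones 1 and 2 and 2.83 in ES cells, and above background in no fibroblast-derived sample. Its difference was 4.88 ± 0.80 (SE, limma adjusted p = 0.0112), at least 36.9-fold. Grb7 passed the filter through the clones alone, and fibroblast-derived values at or near the floor narrow its error. Grb14 (-1.90, adjusted p = 0.00647), an adaptor that inhibits the insulin receptor, Pik3r2 (-1.46, adjusted p = 0.0271), a regulatory subunit of phosphoinositide 3-kinase, and Akt1 (-1.19, adjusted p = 0.0208), a kinase downstream of it, were lower in the clones. Ptpn11 (-0.11), a phosphatase that relays receptor signals to Ras, did not pass. Against MEF 0 of 29 were higher and 3 lower (4.73% and 9.32% of all probes), and against ES cells 0 of 29 were higher and 1 lower (4.06% and 9.43% of all probes).

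Of 20 tested feedback proteins and inhibitors (28 listed, 23 with a probe), 3 were lower in the clones than in the fibroblast-derived samples and none higher (4.73% and 4.2% of all probes), with a median of -0.48. They were Socs1 (-2.77, adjusted p = 0.0314), an inhibitor of cytokine and receptor signalling, Errfi1 (-2.33, adjusted p = 0.00706), which inhibits ErbB receptors, and Fgfrl1 (-1.83, adjusted p = 0.0246), a fibroblast growth factor receptor without a kinase domain. Socs3 (0.43) and Ptpn1 (-0.42) did not pass. Against MEF 2 of 19 were lower (9.32% of all probes), against ES cells 3 of 21 were lower (9.43% of all probes), and none was higher in either. Of 12 other receptor kinases, 8 had a probe and 3 were tested, and none passed in any of the 3 comparisons. Among them Styk1 had a difference of -1.19 and Aatk one of 1.04 against the fibroblast-derived samples. Ltk, also tested, was above background in every clone and in ES cells and in no fibroblast-derived sample. Its difference was 1.54 (limma adjusted p = 0.0502), at least 3.66-fold, and it passed the filter through the clones alone.

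Markers of other cell types varied beside these values. Epithelial marker sums were 5.77 to 74.6 in the clones, 20.8 in ES cells and 0.123 to 15.2 in the fibroblast-derived samples. Macrophage and blood marker sums were 0.515 to 0.902 in the clones, 0.517 in ES cells and 0.391 to 9.75 in the fibroblast-derived samples. The 9.75 belonged to the unselected MEF, where 7 of 9 such markers were above background, among them Lyz2 (2.04), Tyrobp (1.22), Adgre1 (0.16) and Cd68 (-0.09). The clones had 2 or 3 of 9 above background and the other fibroblast-derived samples 2 to 5. Ptprc and Itgam were above background on no array. Neural marker sums were 0.91 to 2.31 in the clones, 4.17 in ES cells and 1.57 to 6.96 in the fibroblast-derived samples. Their part in the receptor results was not tested.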

How the data were processed

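RNA of 9 samples was hybridised to 1-colour Agilent arrays. Per the file headers, version 8.5.1.1 of Agilent's Feature Extraction made the scanner tables that the authors deposited. Its processed signal was used, a background-subtracted intensity on a linear scale. The deposited value table held the same values within 0.6% on all 22054 features. Control spots (736) and spots the program called outliers (0 to 9 an array) were left out, and 20868 gene probes remained. The signal was divided by each array's 75th percentile, floored at 3.63% of it (-4.78 on the log2 scale) and log2 transformed, starting from the deposited intensity. Between 39.8% and 49.3% of probes stood at the floor. A side that was nowhere well above background has only a bound, written "at least N-fold". It sets the mean of the brighter side against the higher of the array's lowest signal above background and the probe's own, so it may be larger than the fitted difference.

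Genes were named by RefSeq accession or symbol, and a gene with several probes was read from the brightest. Probes that 50% or more of the arrays of either side measured well above background were tested, two-sided, with limma 3.58.1 (R 4.3.3) and Benjamini-Hochberg adjustment over all of them, called under 0.05, after a test on simulated data. No array has a technical repeat, and their number limits the precision. Members and lists were chosen with earlier results of these data known. Members called in a comparison, 5-fold apart between ES and MEF or among the 10 widest ranges are described by sample. From each other list the text names up to 4 called genes with the largest difference and 2 bright uncalled ones. Kitl, Gas6 and Ltk were added after their values were seen. Alternatives were other scalings, normexp (offset 50), floors, filters, scan as a block, averaged 3-factor clones and single samples left out. Runs within scan 1 were added after seeing the data. The insert of the immortalised line's vector, that line's own comparison with MEF and 1 gene that the naming rule picks are not reported here.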

Additional observations from a re-analysis of the deposited data

Results flagged for a closer look

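Igf1r, the insulin-like growth factor receptor, was at -2.24 in the unselected MEF, the lowest of the 4 fibroblast-derived samples, whereas the other 3 lay between -0.91 and -0.72. The gap to its nearest neighbour took up 0.875 of the whole range. It was the only such gap among 30 sets of values of 1 gene in 1 class that were examined. Chance alone gives such a gap in about 1 of 20 sets, so a single gap among 30 is not beyond chance.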

How the results depend on the processing

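No paired analysis was run because the labels give no pairing of samples. No called receptor gene changed direction under any alternative. For the clones against the fibroblast-derived samples, 1156 probes were called (544 higher, 612 lower) and 5 receptor genes. Without a filter on dim probes the counts were 642 and 2, with scan as a block 740 and 1 (Ryk), with the 3-factor clones averaged 443 and 2, and within scan 1 0 and 0 by limma, where 2990 probes had an unadjusted p under 0.05. Normexp called 2 receptor genes. Leaving out 1 sample gave 413 to 1592 probes and 2 to 7 receptor genes. Scaling to the median of probes above background moved the median of all probes to 0.20 and the split to 910 higher and 406 lower. For the clones against MEF, 1834 probes (617 higher, 1217 lower) and 8 receptor genes were called. Normexp gave 947 and 5, averaged 3-factor clones 348 and 1, median scaling 5 receptor genes (806 probes higher, 865 lower) and scan as a block 5. Leaving out 1 sample gave 318 to 1896 probes and 0 to 9 receptor genes. For the clones against ES, 1782 probes (536 higher, 1246 lower) and 3 receptor genes were called. Normexp gave 491 and 0, averaged 3-factor clones 503 and 0, within scan 1 0 and 0 (2917 probes unadjusted), a lower floor 1162 probes, the filter on every array of a side 6 receptor genes and scan as a block 1. Leaving out 1 sample gave 475 to 2081 probes and 0 to 4 receptor genes. The causes were not tested. Counts of single arrays at 5-fold stayed within 1.5 times under median and quantile scaling. Lone MEF and ES arrays and the probes at the floor limit what these data resolve.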
